A study of Mus musculus with 8 samples.

Results

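The 42 genes described here act in DNA replication and in mitosis, and were chosen by symbol from a fixed list. They belong to the 22756 genes with a deposited coding sequence (CDS) count, and all 42 reached the mean count of 10 required of the 13637 genes tested. RNA-Seq was performed on cells enriched for distal lung epithelium of adult mice of more than 90 percent C57BL/6 strain background, after lavage of the airspaces and depletion of CD45+ cells with magnetic beads. All mice carried an IRES-tauGFP reporter in the nicotinic receptor gene Chrna7, placed there by homologous recombination. This was the only change in the control genotype (Chrna7-IRES-tauGFP, α7G), and the receptor of the other genotype also carried the E260A substitution (Chrna7-E260A-IRES-tauGFP, α7E260A:G), which limits calcium coupling of the receptor. Side-stream cigarette smoke (CS) was given to mice of each genotype for 4 months, on 5 days in each week, and the control mice breathed room air. Each of the 4 groups had 1 male and 1 female library, so the spread within a group is also a difference between the sexes, and the number of mice behind a library is not given in the sources used here.

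Proliferating cells express these genes in waves. The replication genes rise as cells enter S phase, when the Mcm2 to Mcm7 helicase unwinds DNA, Pcna clamps the polymerases to it and ribonucleotide reductase and thymidylate enzymes supply nucleotides. The mitotic genes rise in G2 and M phase, when cyclin B with Cdk1 starts mitosis, condensins and topoisomerase II fold the chromosomes, kinesins and their partners build the spindle, and the anaphase-promoting complex ends the phase by degrading cyclins. In adult lung few epithelial cells divide at any time, and transcripts of both waves are used as a measure of proliferation in tissue. In RNA from many cells, fewer dividing cells and less RNA per dividing cell cannot be told apart.

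The libraries held between 8020726 and 10944100 CDS counts, and 3 counts corresponded to 0.274 to 0.374 RPM (CDS counts scaled to a library total of 1000000). Epithelial markers (Epcam, Cdh1 and the keratins Krt8, Krt18 and Krt19) summed to between 1002 and 1886 RPM over the 8 libraries. Markers of airway epithelium, such as Scgb1a1, summed to between 14770 and 67840 RPM, and those of alveolar type 2 cells to between 4767 and 30670 RPM. Alveolar macrophage markers, of which 15 were measured, summed to between 21840 and 69350 RPM despite the removal of CD45+ cells. The level of a gene in a library also varied with the length of its CDS. Relative to the mean of all libraries, the slope of log2 RPM for each doubling of the length was 0.37 in the male α7E260A:G control, 0.18 in the male α7G control and the male α7E260A:G CS library, and 0.06 in the female α7G control. The slope was negative in the other libraries, with -0.27 in the female α7E260A:G control, -0.20 and -0.18 in the male and female α7G CS libraries and -0.14 in the female α7E260A:G CS library. The members had long CDS, with a median of 2180 bp (444 bp in Birc5 to 9531 bp in Mki67) against 1413 bp for the genes tested. Each comparison is therefore given as edgeR fitted it and again with the length trend of each library removed. In α7G the slope was positive in both controls and negative in both CS libraries. A response to CS that varies with CDS length cannot be told apart from the trend there, and the correction removes both. The origin of the trends was not tested.

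Measured as RPM per kb of CDS and averaged over the 8 libraries, the replication clamp Pcna was the most abundant member (136). It was followed by the condensin ATPase Smc4 (61.8), the helicase subunit Mcm6 (42.8) and the large subunit of ribonucleotide reductase Rrm1 (38.0). The other 5 helicase subunits lay between 19.1 (Mcm2) and 34.85 (Mcm4). Among the regulators of mitotic entry, the kinase Cdk1 was at 30.5 RPM per kb, while its partners were at 17.7 (Ccna2), 17.5 (Ccnb2) and 2.08 (Ccnb1). Smc4 exceeded the condensin subunits it works with, since Smc2 was at 10.4, Ncapd2 at 12.0 and Ncapg at 5.52 RPM per kb. The lowest members were the kinetochore proteins Cenpf (1.08) and Cenpe (1.95), which are the longest after Mki67. Counts were thus very unequal, with a mean of 2115 per library for Smc4 and 23.9 for Ccnb1, and values of Ccnb1 have a large counting error.

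**Figure D1:**
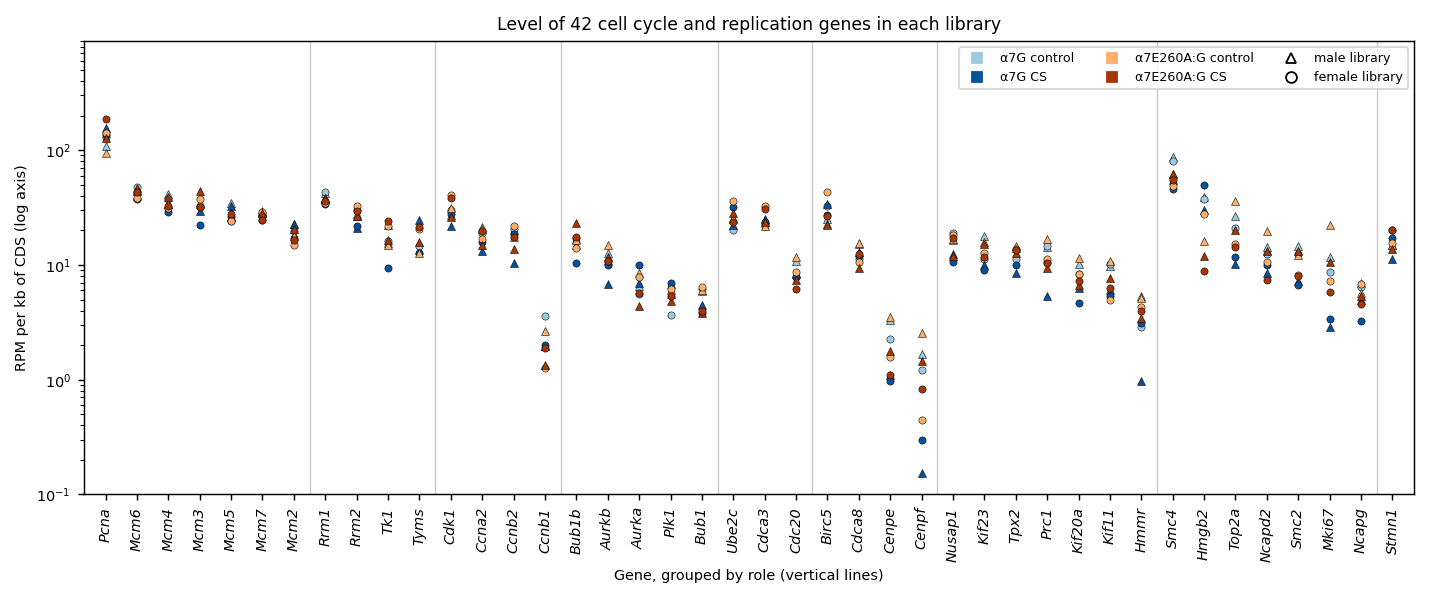
Level of each of the 42 members in each of the 8 libraries, as RPM per kb of CDS on a log axis, with genes grouped by role and sorted by mean level within a role. Triangles are male and circles female libraries, and colours mark the 4 groups. Pcna lies highest at a mean of 136, Cenpf lowest at 1.08, and the 2 α7G CS libraries lie lowest for Cenpf and Mki67.

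Promoters of 35 of the 42 members were found in RefSeq (GRCm38.p6), as the 250 bases before and 50 bases after a start site. Ccna2, Aurkb, Kif20a, Tpx2, Mcm4, Smc4 and Stmn1 were not in that table. They were searched on both strands for the cell cycle homology region (CHR, as TTTGAA or TTCGAA, or TTCAAA for the first on the opposite strand), for the CCAAT box (CCAAT or ATTGG) and for an E2F core (TTCCCGC or TTGGCGC, or GCGGGAA or GCGCCAA on the opposite strand), where an E2F core and a CCAAT box can overlap, as in GCGCCAAT. CHR was matched in 23 of the 35 promoters (65.7%) and in 16.5% of the 9533 tested genes with a promoter in the table, and in 19.2% of all promoters. CCAAT was matched in 31 (88.6%), against 42.5% of the tested genes and 37.4% of all promoters. The E2F core was matched in 10 (28.6%), against 13.6% of the tested genes and 6.81% of all promoters. All 23 promoters with CHR also held CCAAT, a combination present in 7.90% of tested genes and 7.52% of all promoters. The classes of members differed in these letters. Of the 10 replication and nucleotide genes with a promoter, 5 held the E2F core and 2 CHR, and of the 25 other members 5 held the E2F core and 21 CHR. These matches describe the letters only. The promoters of 4 mitotic members that are described further below and of 1 replication gene are shown 5′ to 3′ on the strand of the gene, with CHR, CCAAT and E2F core matches in capitals.
Top2a (chr11:99024140-99024439, minus strand): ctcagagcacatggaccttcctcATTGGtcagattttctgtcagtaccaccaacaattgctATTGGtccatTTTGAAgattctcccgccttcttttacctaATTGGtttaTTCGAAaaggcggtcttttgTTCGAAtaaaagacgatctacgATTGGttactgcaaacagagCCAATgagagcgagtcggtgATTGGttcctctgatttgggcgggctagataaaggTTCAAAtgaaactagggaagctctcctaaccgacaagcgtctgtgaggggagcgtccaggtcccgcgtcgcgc
Bub1 (chr2:127831810-127832109, minus strand): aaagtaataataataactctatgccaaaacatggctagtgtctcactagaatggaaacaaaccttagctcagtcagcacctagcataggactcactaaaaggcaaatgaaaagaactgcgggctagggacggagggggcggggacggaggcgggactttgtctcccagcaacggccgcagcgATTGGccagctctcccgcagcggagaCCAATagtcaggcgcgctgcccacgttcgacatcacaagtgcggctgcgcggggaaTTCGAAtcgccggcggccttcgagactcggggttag
Prc1 (chr7:80294201-80294500, plus strand): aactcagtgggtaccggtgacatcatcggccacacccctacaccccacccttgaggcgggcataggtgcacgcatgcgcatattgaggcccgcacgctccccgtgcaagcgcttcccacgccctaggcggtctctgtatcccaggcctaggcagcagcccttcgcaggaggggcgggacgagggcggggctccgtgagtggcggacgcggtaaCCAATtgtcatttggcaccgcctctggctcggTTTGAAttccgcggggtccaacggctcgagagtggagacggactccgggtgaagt
Hmgb2 (chr8:57511593-57511892, plus strand): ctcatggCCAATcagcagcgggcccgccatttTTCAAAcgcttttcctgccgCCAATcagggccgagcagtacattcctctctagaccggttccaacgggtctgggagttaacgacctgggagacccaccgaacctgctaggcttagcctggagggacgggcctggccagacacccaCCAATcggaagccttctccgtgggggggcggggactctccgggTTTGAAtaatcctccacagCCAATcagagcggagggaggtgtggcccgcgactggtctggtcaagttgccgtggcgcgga
Mcm6 (chr1:128359656-128359955, minus strand): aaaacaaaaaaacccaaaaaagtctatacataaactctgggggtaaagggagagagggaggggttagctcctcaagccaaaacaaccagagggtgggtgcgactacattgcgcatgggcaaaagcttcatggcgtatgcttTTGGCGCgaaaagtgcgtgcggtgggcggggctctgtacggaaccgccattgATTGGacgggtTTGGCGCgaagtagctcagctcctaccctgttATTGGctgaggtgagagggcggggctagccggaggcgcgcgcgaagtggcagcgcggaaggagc

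CS against control was compared to ask how prolonged smoke altered the expression of these genes in the distal lung. Most mitotic members had lower values after CS, and replication members had values on both sides of 0. Of the 31 members outside replication and nucleotide supply, 27 had a negative log2 fold-change over both genotypes, with a median of -0.35. Of the 11 genes of replication and nucleotide supply, 5 were negative and the median was 0.05. Across all genes tested, 49.2% were negative and the median was 0.01. No member passed an adjusted p of 0.05 (edgeR, 0.0% of all genes passed), and the smallest adjusted p was 0.612. At an unadjusted p under 0.05, 8 members were lower (Cenpe, Mki67, Top2a, Kif20a, Cenpf, Bub1, Prc1 and the condensin subunit Ncapd2) and none was higher, while 4.47% of all genes were lower and 3.18% higher. DESeq2 called 68 of all genes (0.499%) and 1 member, Mki67. The division of the members into these 2 classes was made after their values were seen, and the difference between the classes was not tested.

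By role, and without correction for length, the most negative medians were -0.62 for the 4 centromere members, -0.51 for the 7 members of chromosome structure and -0.43 for the 7 spindle and midbody members, and each of these 18 genes was negative. The cyclins and Cdk1 had a median of -0.27, with 4 of 4 negative. The mitotic kinases and checkpoint genes had a median of -0.06, with 3 of 5 negative. The 3 genes grouped here under the anaphase-promoting complex (Cdc20, Ube2c and Cdca3) had a median of 0.02. With the length trend removed the order changed, to -0.45 for the centromere members, -0.40 for spindle and midbody, -0.34 for the cyclins and Cdk1, -0.33 for chromosome structure (6 of 7 negative), -0.21 for the anaphase-promoting complex (3 of 3 negative) and -0.14 for the kinases and checkpoint genes. The microtubule destabilizer Stmn1 was at -0.05 ± 0.31 (SE), and at -0.36 with the trend removed. With each of the 8 libraries left out in turn, the median of the 31 mitotic and other members ranged from -0.40 to -0.28 and that of the 11 replication and nucleotide genes from -0.13 to 0.09. The number of negative mitotic members was lowest without the female α7E260A:G control (23 of 31) and was 31 of 31 without the male α7E260A:G control. The replication and nucleotide class depended more on single libraries, since 9 of its 11 genes were negative without the male α7G CS library (median -0.13), 7 of 11 without the male α7E260A:G control or the female α7E260A:G CS library, and 3 of 11 without the female α7E260A:G control. The median of the mitotic and other members lay below that of the replication and nucleotide genes in each of these fits.

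Mki67, which coats mitotic chromosomes and is the usual marker of proliferating cells, was at 113 and 83.3 RPM in the male and female α7G controls and at 27.2 and 31.9 RPM in the α7G CS libraries. In α7E260A:G it was at 213 and 69.1 RPM in the male and female controls and at 102 and 55.8 RPM after CS. CS values were lower in 4 of 4 pairs of the same sex and genotype, although the ranges of CS and control overlapped. The log2 fold-change was -1.22 ± 0.31 (SE), with an adjusted p of 0.612 in edgeR and 0.0351 in DESeq2, and it lay between -1.47 without the female and -0.83 without the male α7E260A:G control. Without the female α7E260A:G control, edgeR called Mki67 (adjusted p = 0.0487).

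Top2a, the topoisomerase that untangles replicated chromosomes, was at 124 and 97.0 RPM in the α7G controls (male, then female, as below) and at 47.1 and 53.7 RPM after CS. In α7E260A:G it was at 166 and 69.5 RPM in the controls and at 92.6 and 65.8 RPM after CS. CS was again lower in 4 of 4 pairs, and 1 CS library, the male α7E260A:G, lay within the control range. The log2 fold-change was -0.79 ± 0.23 (SE, edgeR adjusted p = 0.636).

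Cenpe, the kinesin that moves chromosomes to the spindle equator, was at 24.4 and 16.8 RPM in the α7G controls and at 8.15 and 7.22 RPM after CS. In α7E260A:G it was at 26.1 and 11.8 RPM in the controls and at 13.1 and 8.19 RPM after CS. The CS libraries were lower in each of the 4 pairs, and the only overlap was between the male α7E260A:G CS and the female α7E260A:G control library. The log2 fold-change was -1.07 ± 0.26 (SE, edgeR adjusted p = 0.612).

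Cenpf, a large kinetochore protein, was at 15.2 and 11.1 RPM in the α7G controls and at 1.40 and 2.71 RPM after CS, from 12 and 24 counts. In α7E260A:G it was at 23.2 and 4.02 RPM in the controls and at 13.3 and 7.63 RPM after CS, so that the female pair was higher after CS. Its log2 fold-change over both genotypes was -1.43 ± 0.49 (SE, edgeR adjusted p = 0.645), the most negative among the members. Without the male α7E260A:G control it was -0.70, less negative than Cenpe (-0.84) and Mki67 (-0.83).

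Bub1, a checkpoint kinase that holds anaphase until chromosomes are attached, was at 19.0 and 19.4 RPM in the α7G controls and at 14.2 and 12.2 RPM after CS, and at 19.3 and 20.3 RPM in the α7E260A:G controls and 12.1 and 12.5 RPM after CS. The 4 CS libraries lay below the 4 controls (exact permutation test, two-sided p = 0.0286, the smallest that 70 arrangements allow, adjusted p = 0.813 over all genes). The log2 fold-change was -0.58 ± 0.20 (SE, edgeR adjusted p = 0.645).

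Kif20a, a kinesin of the midbody that is needed for cytokinesis, was at 27.1 and 22.4 RPM in the α7G controls and at 16.9 and 12.4 RPM after CS. In α7E260A:G it was at 30.3 and 22.1 RPM in the controls and at 17.8 and 19.3 RPM after CS. These ranges did not overlap either, and the log2 fold-change was -0.58 ± 0.20 (SE, edgeR adjusted p = 0.645). Bub1 with the length trend removed was at 12.9 and 29.1 RPM in the male and female α7E260A:G controls, CS and control were no longer separate (p = 0.371, exact two-sided permutation test), and its log2 fold-change was -0.38 ± 0.29 (-0.04 without the female α7E260A:G control). On the same scale Kif20a was at -0.40 ± 0.22 (SE). The RPM ranges were also separate for Prc1, which bundles microtubules at the midzone (-0.62 ± 0.26, SE), and for the condensin subunit Ncapg (-0.50 ± 0.23, SE). In all, 4 of 42 members were lower after CS without overlap of the 4 and 4 libraries, against 0.931% of all genes, and none was higher without overlap, against 1.84%. Lower values in 4 of 4 pairs were found for 16 members, against 11.6% of all genes, and higher values in 4 of 4 pairs for Pcna alone, against 11.4%.

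**Figure D2:**
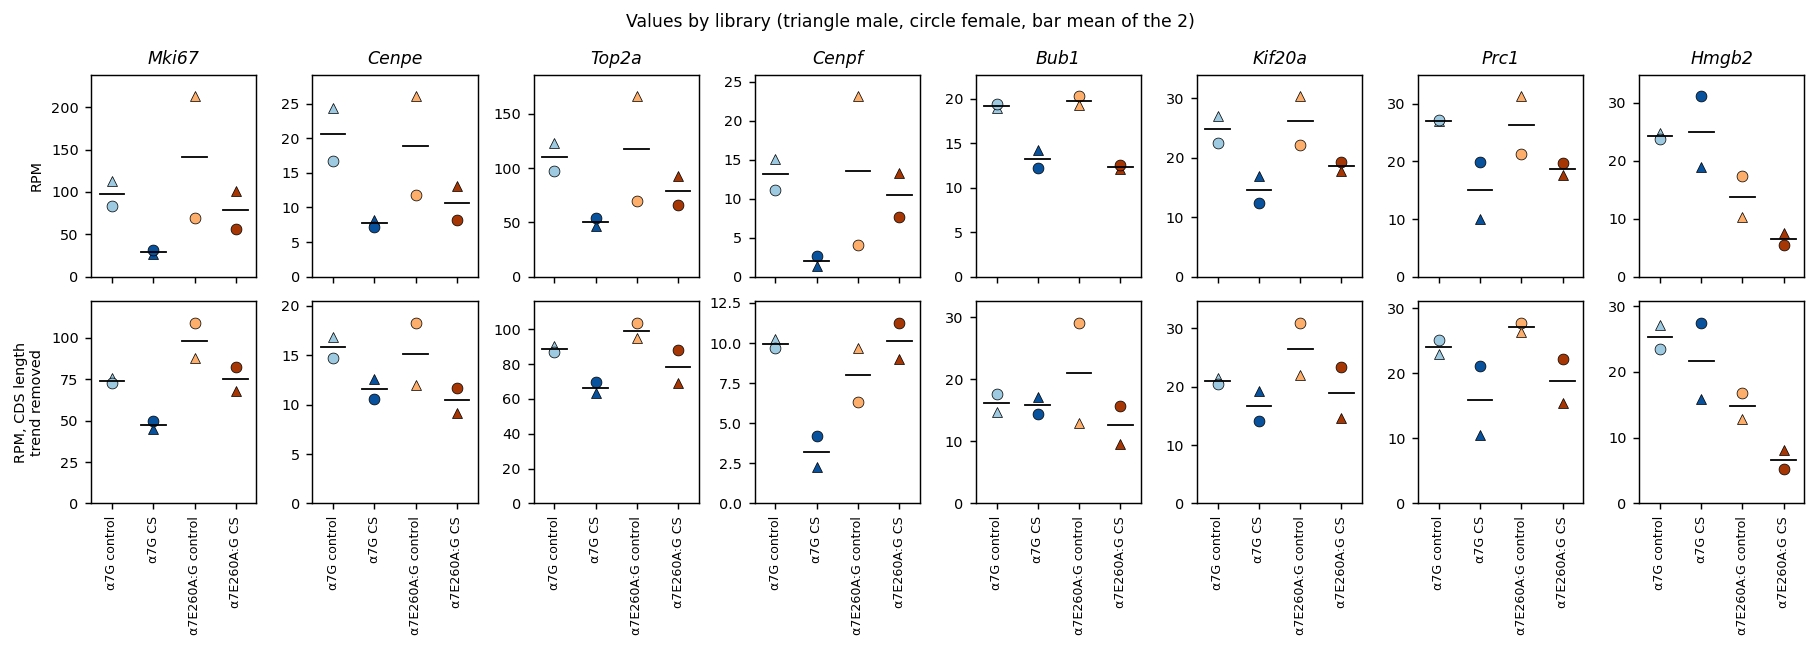
Values of 8 members in each library, as RPM (upper row) and as RPM with the CDS length trend of the library removed (lower row), by group. Triangles are male, circles female and bars the mean of the 2 libraries. Mki67 RPM lie at 27.2 and 31.9 in α7G CS against 113 and 83.3 in the α7G controls, and Hmgb2 RPM lie at 17.4 or below in α7E260A:G and at 18.9 or above in α7G.

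Among the replication members, the Mcm helicase subunits lay near 0 on the log2 scale and Pcna above it. Pcna was at 85.9 and 103 RPM in the α7G controls and at 123 and 106 RPM after CS, and at 74.3 and 111 RPM in the α7E260A:G controls and 101 and 146 RPM after CS. It was thus higher after CS in each pair, with a log2 fold-change of 0.37 ± 0.27 (SE, edgeR adjusted p = 0.715), and CS and control overlapped. With the length trend removed, the female α7G pair of Pcna was lower after CS (96.8 against 101 length-corrected RPM), and the other pairs stayed higher. The 7 replication members then lay between -0.03 and 0.22 (log2). Without this correction, the 6 subunits of the Mcm helicase lay between -0.13 ± 0.18 (Mcm3) and 0.09 ± 0.18 (Mcm5) on the log2 scale, with SE of at most 0.18. Of the enzymes of nucleotide supply, the thymidylate synthase Tyms was at 0.30 ± 0.33, the thymidine kinase Tk1 at 0.09 ± 0.36, Rrm1 at -0.08 ± 0.15 and the regulated subunit of ribonucleotide reductase, Rrm2, at -0.24 ± 0.21 (SE).

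**Figure D3:**
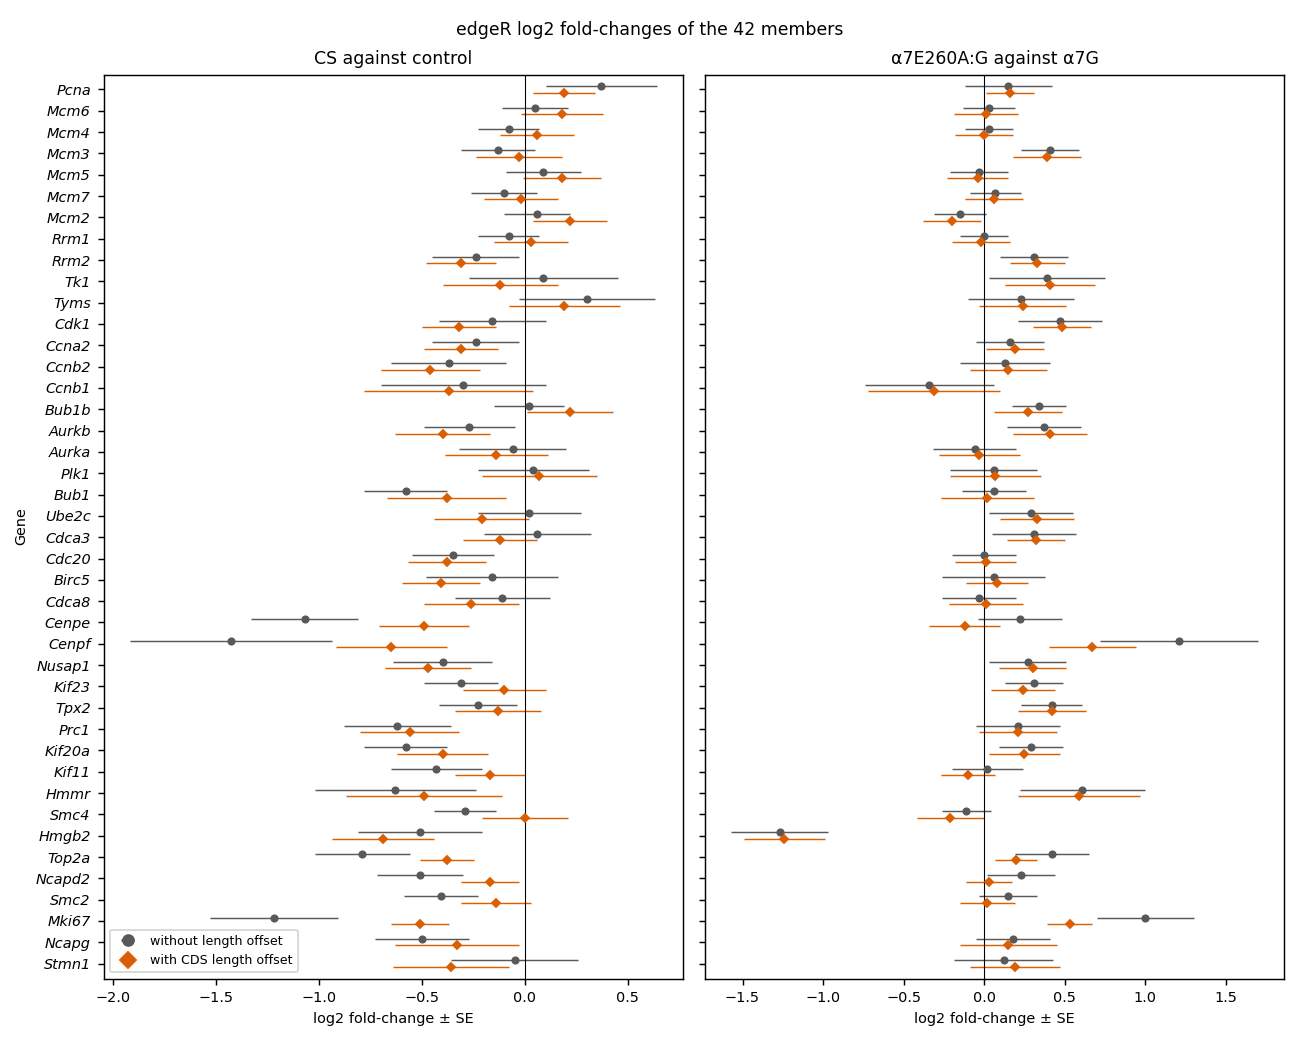
edgeR log2 fold-changes of the 42 members with their SE, for CS against control over both genotypes (left) and α7E260A:G against α7G over both exposures (right), as fitted (grey circles) and with the CDS length offset (orange diamonds). After CS the 7 genes of DNA replication at the top lie between -0.13 and 0.37 without the offset and between -0.03 and 0.22 with it. Mki67, Cenpe and Cenpf are at -1.07 or below without the offset and between -0.65 and -0.49 with it. Hmgb2 is the lowest in the genotype comparison in both fits.

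CDS length moved together with the size of these differences. Across the 42 members, the log2 fold-change of CS correlated with log2 CDS length at r = -0.65 (Spearman rho -0.54), and at r = -0.75 in α7G alone. Across all 13637 genes tested r was -0.37 and, in α7G, -0.53. These are descriptions across genes, which share the same 8 libraries. With the length trend of each library removed, r over the members was -0.01.

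The difference between mitotic and replication members remained in direction with the length trend removed. Of the 31 mitotic and other members 28 were then negative (median -0.36), and of the 11 replication and nucleotide genes 4 were (median 0.06), against 50.2% of all genes. The estimates of the long genes shrank most, since Mki67 went from -1.22 to -0.51 ± 0.14, Cenpe from -1.07 to -0.49 ± 0.22, Cenpf from -1.43 to -0.65 ± 0.27 and Top2a from -0.79 to -0.38 ± 0.13 (SE). Short mitotic genes became more negative, as in Birc5, the survivin subunit of the chromosomal passenger complex, which went from -0.16 to -0.41 ± 0.19, and in Cdk1, which went from -0.16 to -0.32 ± 0.18 (SE). No member was called (edgeR, smallest adjusted p 0.304, with 0.022% of all genes called), and at an unadjusted p under 0.05, 6 members were lower (Mki67, Top2a, Hmgb2, Cenpf, Prc1 and Nusap1) and none higher, against 5.12% lower and 3.97% higher among all genes.

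On the length-corrected scale, Birc5 and Prc1 separated CS from control. Birc5 was at 13.0 and 14.7 in the α7G controls and at 11.8 and 10.2 after CS, and at 14.2 and 16.6 in the α7E260A:G controls and 11.3 and 10.7 after CS (length-corrected RPM). Prc1 was at 23.0 and 25.2 in the α7G controls and at 10.5 and 21.2 after CS, and at 26.4 and 27.8 in the α7E260A:G controls and 15.4 and 22.3 after CS. Each had an exact two-sided permutation p of 0.0286, the smallest possible, with an adjusted p of 0.719 over all genes. These were 2 of 42 members lower without overlap, against 2.13% of all genes. Lower values in 4 of 4 pairs were found for 11 members (Mki67, Top2a, Ccnb2, Cdk1, Aurkb, Cenpe, Kif20a, Birc5, Nusap1, Rrm2 and Prc1), against 10.8% of all genes, and higher values in 4 of 4 pairs for none, against 10.6%.

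**Figure D4:**
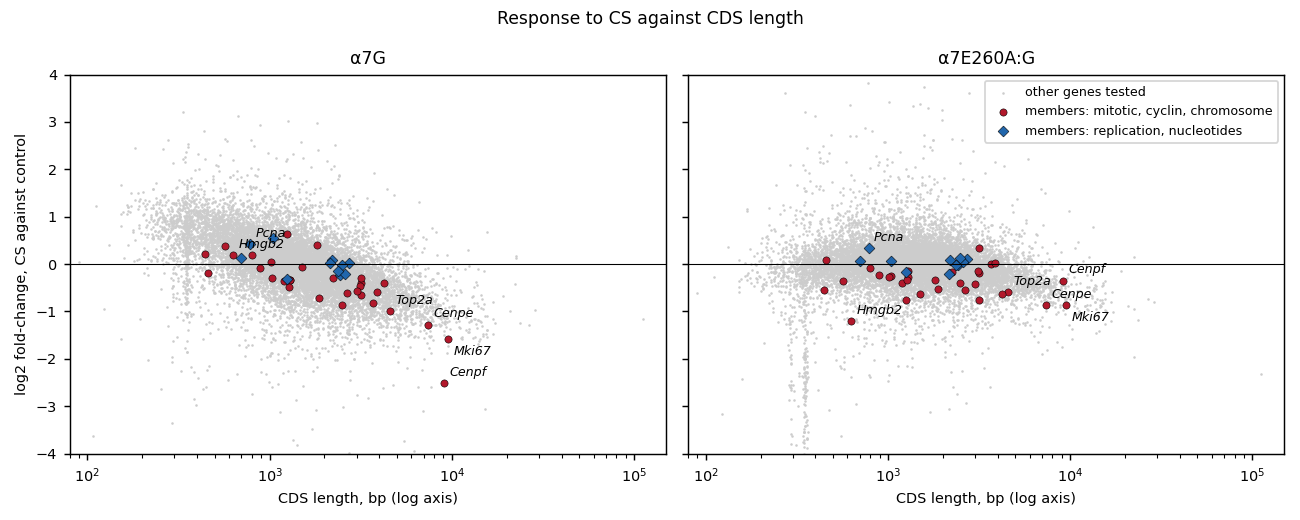
log2 fold-change of CS against control, without length offset, against CDS length on a log axis, in α7G (left) and α7E260A:G (right). Grey points are the genes tested (those beyond 4 on either side are not drawn, and no member is among them), red circles the 31 mitotic and other members, and blue diamonds the 11 members of replication and nucleotide supply. In α7G the members and the other genes fall with length (r = -0.75 and -0.53), and in α7E260A:G this relation is weak (r = -0.15 and -0.03).

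The 2 classes were also set side by side within each genotype. In α7G, the median of the 31 mitotic and other members was -0.35 and that of the 11 replication and nucleotide genes 0.02, and in α7E260A:G these were -0.35 and 0.06. With the length trend removed, the medians were -0.33 and 0.10 in α7G and -0.36 and 0.02 in α7E260A:G. These values rest on 2 libraries a group. Without the male α7G CS library, 10 of 11 replication and nucleotide genes were negative in α7G (median -0.19, against -0.29 for the other members), and 5 of 11 with the length trend removed. In α7E260A:G, 10 of 11 were negative without the male control (median -0.12, against -0.41), also with the trend removed, and 0 of 11 without the female control. No member was called in either genotype (edgeR, 0.0% of all genes called in α7G and 0.00733% in α7E260A:G), nor by DESeq2 (0.183% and 0.257% of all genes). At an unadjusted p under 0.05, 6 members were lower in α7G (4.04% of all genes) and 3 in α7E260A:G (1.62%), and none was higher (2.67% and 1.52%). With the trend removed these were 3 members in α7G (4.11% of all genes) and 4 in α7E260A:G (2.61%).

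The members at an unadjusted p under 0.05 in α7G were Mki67 (-1.58 ± 0.44), Cenpf (-2.52 ± 0.73), Cenpe (-1.28 ± 0.37), Smc2 (-0.82 ± 0.26), Top2a (-0.99 ± 0.33) and Smc4 (-0.60 ± 0.22), all given as log2 fold-change and SE. After removal of the length trend, Mki67 was at -0.64 ± 0.19, Cenpf at -1.61 ± 0.41, Cenpe at -0.45 ± 0.31, Smc2 at -0.36 ± 0.24, Top2a at -0.42 ± 0.18 and Smc4 at -0.12 ± 0.30. In α7E260A:G these members were Hmgb2 (-1.21 ± 0.43), Bub1 (-0.76 ± 0.29) and Cenpe (-0.86 ± 0.37), and with the length trend removed Hmgb2 was at -1.16 ± 0.36, Bub1 at -0.73 ± 0.41 and Cenpe at -0.53 ± 0.31 (SE). The difference of the response between genotypes was called for no member (edgeR, 0.0% of all genes called), nor by DESeq2 (0.0513% of all genes). At an unadjusted p under 0.05, 1 member was lower and none higher, and among all genes 1.28% were lower and 0.902% higher. The 1 member was Aurka, a kinase of the centrosome, for which the response was lower in α7E260A:G than in α7G by -1.38 ± 0.52 (log2 and SE, adjusted p = 1.0). The largest difference was that of Cenpf, at 2.17 (log2). With the length trend removed, no member was called. At an unadjusted p under 0.05, 1 member was then lower and 1, Cenpf (1.92), higher, against 1.83% and 1.54% of all genes. Aurka was at -1.35.

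α7E260A:G was next compared with α7G over both exposures, to ask whether these genes differed between the genotypes. Control and CS libraries were averaged in this comparison, so it does not give the effect of the mutation in unexposed mice. The chromatin protein Hmgb2, which bends DNA and is abundant in dividing cells, was lower in α7E260A:G, and most other members were slightly higher. Of the 42 members 33 were positive, with a median log2 fold-change of 0.17 against 0.03 for all genes, of which 46.6% were negative. Without the female α7E260A:G control 16 members were negative and the median was 0.04, and with library-size scaling 16 were negative too. No member was called by edgeR, where 13 genes (0.0953%) were, and the smallest adjusted p was 0.155. At an unadjusted p under 0.05, 2 members were higher (Mki67 and Cenpf) and 1 lower (Hmgb2), and among all genes 5.96% were higher and 5.49% lower. DESeq2 called Mki67 as higher and Hmgb2 as lower, among 516 genes (3.78%).

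Hmgb2 was at 24.8 and 23.7 RPM in the α7G controls and at 18.9 and 31.1 RPM in the α7G CS libraries. In α7E260A:G it was at 10.2 and 17.4 RPM in the controls and at 7.61 and 5.53 RPM after CS. All 4 α7E260A:G libraries lay below all 4 α7G libraries (exact permutation test, two-sided p = 0.0286, adjusted p = 0.363 over all genes), and this was 1 of 42 members, against 5.54% of all genes. No member was higher without overlap, against 2.34%. The log2 fold-change was -1.27 ± 0.30 (SE, adjusted p = 0.155 in edgeR and 0.0127 in DESeq2). With the length trend removed it was -1.24 ± 0.25 (SE) and was called, with an adjusted p of 0.0308 (edgeR, 3.54% of all genes called), while the male α7G CS library, at 15.8 length-corrected RPM, then lay below the female α7E260A:G control at 16.7. On that scale no member was without overlap in either direction, against 4.83% of all genes lower and 5.62% higher. The call with the length trend removed was kept without either α7E260A:G control and lost without any 1 of the other 6 libraries, where the log2 fold-change stayed between -1.41 and -1.01. Hmgb2 has close paralogs, and reads that match more than 1 place can be lost or assigned elsewhere in counting.

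Mki67, whose values in each library are given above, was higher in α7E260A:G by 1.00 ± 0.30 (log2 and SE, adjusted p = 0.241 in edgeR and 0.0491 in DESeq2). On the length-corrected scale the difference was 0.53 ± 0.14 (SE, edgeR adjusted p = 0.0675), and all 4 values were 68.2, 82.7, 87.7 and 109 length-corrected RPM in α7E260A:G against 45.25, 49.98, 72.6 and 75.6 in α7G. These overlapped, although α7E260A:G was higher in 4 of 4 pairs of the same sex and exposure. Without the male α7E260A:G control the edgeR value without length correction was 0.61. Without the female α7E260A:G control it was 1.25 and was called (adjusted p = 0.0150).

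Cenpf, with the values given above, was higher in α7E260A:G by 1.21 ± 0.49 (log2 and SE, edgeR adjusted p = 0.401), and by 0.67 ± 0.27 with the length trend removed. Its female α7E260A:G control, at 4.02 RPM, lay below both α7G controls. Without that library edgeR called Cenpf at 1.56 (adjusted p = 0.0250), and without the male α7E260A:G control it was at 0.48 (adjusted p = 0.527).

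The spindle assembly factor Tpx2 was at 31.4 and 25.1 RPM in the α7G controls and at 19.2 and 22.6 RPM after CS, and at 32.4 and 31.0 RPM in the α7E260A:G controls and 28.6 and 30.4 RPM after CS. It was higher in α7E260A:G in 4 of 4 pairs, by 0.42 ± 0.19 (log2 and SE, edgeR adjusted p = 0.455), with the male α7G control within the α7E260A:G range. Such an order was found for 3 of 42 members (Cdk1, Aurkb and Tpx2), against 6.72% of all genes, and with the length trend removed for 6 (Mki67, Top2a, Ccna2, Cdk1, Aurkb and Prc1), against 13.1% of all genes. Lower values in 4 of 4 pairs were found for Mcm2 and Hmgb2 (15.5% of all genes), and with the trend removed for Hmgb2 (12.8%).

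The helicase subunit Mcm3 was at 85.4 and 78.6 RPM in the α7G controls and at 71.6 and 54.4 RPM after CS, and at 82.7 and 91.8 RPM in the α7E260A:G controls and 107 and 77.7 RPM after CS. The genotypes overlapped, and the log2 fold-change was 0.41 ± 0.18 (SE, edgeR adjusted p = 0.472). The checkpoint protein Bub1b was at 53.3 and 54.1 RPM in the α7G controls and at 46.9 and 32.8 RPM after CS, and at 51.9 and 44.6 RPM in the α7E260A:G controls and 72.7 and 55.8 RPM after CS. It overlapped as well, with a log2 fold-change of 0.34 ± 0.17 (SE, edgeR adjusted p = 0.534). The other 5 helicase subunits lay between -0.15 ± 0.16 (Mcm2) and 0.07 ± 0.16 (Mcm7).

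Cell type markers were also unequal between the groups compared. The 15 alveolar macrophage markers summed to between 39170 and 69350 RPM in α7E260A:G and between 21840 and 32810 RPM in α7G, and the 9 markers of alveolar type 2 cells to between 4767 and 14840 RPM in α7E260A:G and between 20110 and 30670 RPM in α7G. The summed markers of T and NK cells overlapped (1562 to 3234 RPM against 1826 to 2647 RPM), and those of B and plasma cells were at 6243 RPM in the female α7E260A:G control and at most 2389 RPM in any other library. In the other 3 α7E260A:G libraries the B and plasma cell sum (974 to 1196 RPM) lay below that of each α7G library (1831 to 2389 RPM). In the genotype comparison 5 of 7 of these markers were negative (median -0.95), against 46.6% of all genes. Cd79a, Cd79b, Ms4a1 and Sdc1 were called with the length offset (edgeR, 3.54% of all genes called). The same fit called 9 of the 15 alveolar macrophage markers as higher. It called as lower the epithelial marker Epcam, the alveolar type 2 markers Sftpb and Slc34a2, and the endothelial markers Pecam1 and Emcn. Markers of red cell precursors reached 9448 RPM in the male α7E260A:G CS library and at most 2262 RPM elsewhere. After CS, T and NK cell markers were negative in 9 of 14 (median -0.06, 1 lower at an unadjusted p under 0.05) and, with the length trend removed, in 13 of 14 (median -0.30, 4 lower). Fibroblast markers were positive in 6 of 7 (median 0.45, 2 higher at that p) and, with the trend removed, in 7 of 7 (median 0.87, 5 higher). Epithelial markers were positive in 4 of 5 (median 0.61, 3 higher), and also in 4 of 5 with the trend removed (median 0.54, 3 higher). Endothelial markers were positive in 3 of 7 (median -0.04, 1 higher) and, with the trend removed, in 7 of 7 (median 0.27, 1 higher). Among all genes 49.2% were negative after CS, 4.47% lower and 3.18% higher. With the trend removed these shares were 50.2%, 5.12% and 3.97%. No marker of these lists was at 0 in all libraries. The part of any of these in the values of the members was not tested.

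The 3 libraries that stood furthest apart for the members on the length-corrected scale were of α7E260A:G. With the length trend removed, the median member lay 0.35 (log2) above the median of all genes in the female α7E260A:G control, 0.18 above it in the female α7E260A:G CS library and 0.19 below it in the male α7E260A:G CS library. Of the 42 members, 37, 34 and 7 lay above their own mean over the 8 libraries in these 3. In the male α7E260A:G control the median member was 0.00 above the median of all genes. In α7G the values were 0.04 and 0.01 in the controls and -0.05 and -0.13 after CS, all smaller than the distance between the sexes within α7E260A:G. Above their own mean lay 17 and 11 of 42 members in the male and female α7G CS libraries, and 21 in the male α7E260A:G control. Without the length correction both α7G CS libraries were at -0.15, further from 0 than each α7E260A:G library except the female control (0.32).

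**Figure D5:**
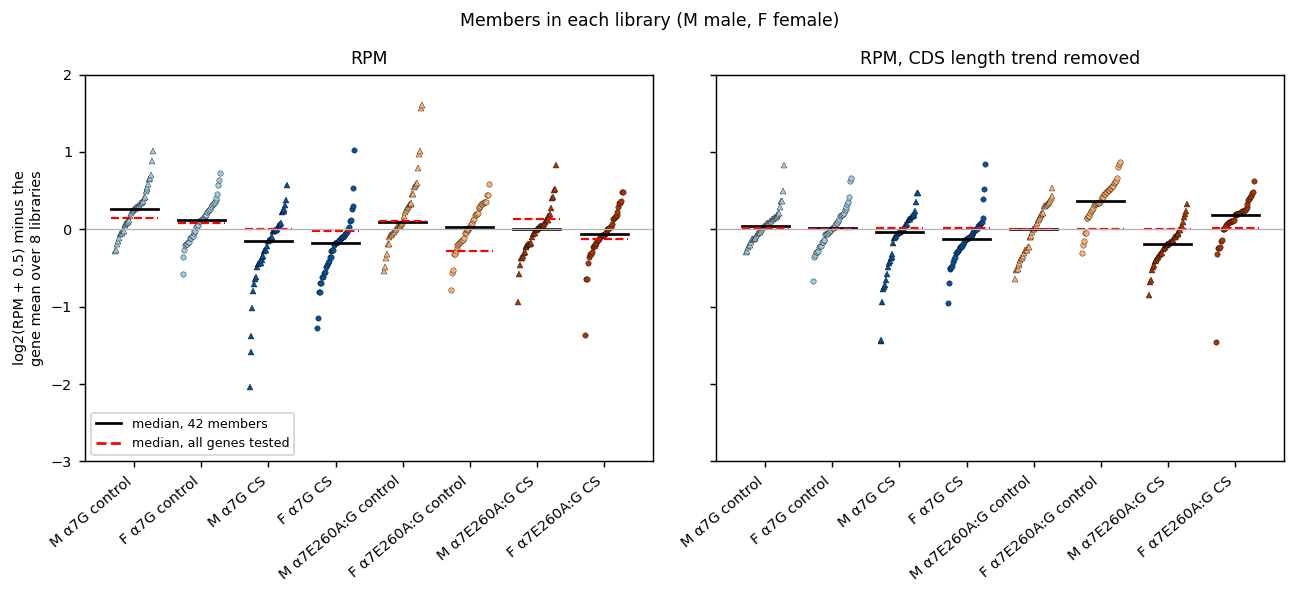
The 42 members in each library as log2(RPM + 0.5) minus the mean of the gene over the 8 libraries, as measured (left) and with the CDS length trend removed (right), sorted within a library. Black lines are medians of the members and red dashed lines medians of all genes tested. With the trend removed, 37 of 42 members lie above their mean in the female α7E260A:G control and 7 of 42 in the male α7E260A:G CS library.

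Other genes of the cell cycle, which are not members, were counted from 4 lists. Of 46 tested mitotic genes outside the members, 39 were negative after CS (median -0.32), with 11 lower and 1 higher at an unadjusted p under 0.05. Among all genes tested 49.2% were negative, 4.47% lower and 3.18% higher. After removal of the trend 37 of the 46 were negative (median -0.27), with 7 lower and none higher. The shares of all genes were then 50.2% negative, 5.12% lower and 3.97% higher. Of 38 genes of the replication origin and fork, 12 were negative (median 0.12), with 1 lower and none higher at an unadjusted p under 0.05. The 19 genes of G1 and S phase entry had a median of -0.09 and the 7 inhibitors of cyclin-dependent kinases one of -0.06, and none passed an unadjusted p of 0.05 in either direction. In the genotype comparison, the medians were 0.17 for the mitotic genes (1 higher and 1 lower at an unadjusted p under 0.05), -0.01 for the origin and fork (1 higher), 0.09 for G1 and S phase entry (4 higher and 1 lower) and -0.19 for the inhibitors (1 lower). Among all genes 5.96% were higher and 5.49% lower in that comparison. Without the length offset, edgeR called no gene of these lists in either comparison over both levels of the other factor. With the offset, E2f1 was called as higher and Pttg1 as lower in the genotype comparison (3.54% of all genes called), and none was called for CS.

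Foxm1, the factor that activates many mitotic genes, was at 10.9 and 11.4 RPM in the α7G controls and at 3.61 and 4.96 RPM after CS, and at 22.4 and 9.14 RPM in the α7E260A:G controls and 11.8 and 4.98 RPM after CS. It was lower after CS in each pair, with a log2 fold-change of -1.10 ± 0.34 and, with the length trend removed, -0.98 ± 0.27 (SE, edgeR adjusted p = 0.641 and 0.317). E2f1, the activator of S phase genes, was at 18.5, 15.3, 15.4 and 16.9 RPM in the 4 α7G libraries. In the 4 α7E260A:G libraries it was at 34.1, 24.3, 34.3 and 29.9 RPM, without overlap (2.34% of all genes were higher in this way). Its genotype difference was 0.96 ± 0.17 (SE, edgeR adjusted p = 0.108), and 0.98 ± 0.16 with the length trend removed (adjusted p = 0.0146), and its value for CS was 0.08 ± 0.17.

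Cyclin D1 (Ccnd1), which drives G1, differed between genotypes by -0.75 ± 0.24 and after CS by 0.14 ± 0.24, and the inhibitor Cdkn1a (p21) by 0.32 ± 0.18 and -0.00 ± 0.18 (log2 and SE), with edgeR adjusted p of at least 0.267. Securin (Pttg1), which restrains separase until anaphase, was named after its values were seen. It was at 60.0, 71.0, 112 and 107 RPM in α7G. In α7E260A:G it was at 16.1, 28.7, 16.7 and 18.6 RPM, without overlap (5.54% of all genes were lower in this way). Its difference was -1.98 ± 0.28 (SE, edgeR adjusted p = 0.0636), and -1.96 ± 0.15 with the length trend removed (adjusted p = 0.000501).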

How the data were processed

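Cells were dissected from distal lung, depleted of CD45+ cells and used for stranded poly(A)+ libraries (TruSeq). The authors aligned reads with STAR to NCBI37/mm9, summarized reads on CDS with htseq-count and GENCODE M1, and deposited raw counts of 22756 genes in 8 libraries, without normalization. Versions are not given in the sources used here. CDS lengths were the union of GENCODE M1 CDS, in which all 22756 genes were found.

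RPM were counts scaled to a library total of 1000000. Counts were tested with edgeR 4.0.16 (R 4.3.3, limma 3.58.1; glmQLFit and glmQLFTest, TMM, 4 group means without a term for sex, mean count of at least 10, Benjamini-Hochberg at 0.05, common dispersion 0.106). The study itself required a mean of 200, which 20 members reach. SE are the log2 fold-change divided by the root of F. For the length trend, log2(RPM + 0.5) minus its mean over libraries was smoothed against log2 length by lowess (span 0.667) in each library, and this curve replaced TMM as the offset. Single values used an exact permutation test of 4 against 4 libraries. Alternatives were DESeq2 1.42.0, library-size scaling, the study's filter (7190 genes), no filter (17542 genes), sex as replicate block, and leaving out each library. Combining the length offset with left-out libraries was chosen after seeing the data.

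The members and lists were chosen with earlier results of these data known. Values are given in every library for the 6 members of smallest p in the genotype and in the CS comparison and for the most and the least abundant member per kb; Ccnd1, Cdkn1a, Foxm1, E2f1 and list genes past the threshold are named. Values of other members are given as examples. The libraries of a group differ in sex and so in animals, and how many animals each holds is not given, so p-values measure only the spread between these libraries, and floors cover counting error only. On simulated counts of the 13637 genes for CS against control, edgeR recovered 10.0% of 200 genes changed by 1 and 98.0% of those changed by 2 (log2), and 1.5% and 92.0% with the length trends of these libraries added (5.5% and 98.0% with the offset). The added trends came from the same smoothing as the offset, so the gain with the offset is built into the simulation. Every simulated gene had the common dispersion of 0.106, unlike genes of the real data. Among unchanged genes edgeR made 0 and 6 false calls and DESeq2 20 and 16, without length trends. Tables and figures used Python 3.11.15, numpy 2.4.6, pandas 2.3.3, scipy 1.17.1 and matplotlib 3.10.9. Reads, tumor, histology and flow cytometry data were not used here.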

Additional observations from a re-analysis of the deposited data

Results flagged for a closer look

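In 3 of 84 groups of 4 libraries (42 members in 2 genotypes), 1 library lay apart from the others of its genotype by Dixon's test, of which chance flags about 1 in 20 groups. Ccnb1 was at 4.59 RPM in the female α7G control and between 2.53 and 2.59 RPM in the other α7G libraries, from few counts. Cdc20, the activator of the anaphase-promoting complex, was at 16.1 RPM in the male α7G control and between 11.8 and 12.5 RPM in the others. Tyms was at 25.8 RPM in the male α7G CS library and between 13.3 and 15.3 RPM in the others.

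In 6 of 42 members, against 13.2% of all genes, RPM after CS lay on one side of control in both sexes of α7G and on the other side in both sexes of α7E260A:G. The difference of the response (log2, α7E260A:G minus α7G) was -1.38 for Aurka (adjusted p = 1.0, edgeR), which was higher after CS in α7G and lower in α7E260A:G. It was 0.63 for Bub1b, 0.26 for Mcm4, 0.16 for Mcm6, 0.12 for Rrm1 and 0.06 for Mcm2, each with an adjusted p of 1.0. With the length trend removed these values were -1.35 for Aurka, 0.30 for Bub1b, -0.00 for Mcm4, -0.09 for Mcm6, -0.10 for Rrm1 and -0.21 for Mcm2.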

How the results depend on the processing

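The 6 named members of the genotype comparison and the 6 of the CS comparison kept their sign under each setting in which they were fitted (4 and 2 of them pass the study's filter), and since edgeR called no member, no call could be lost. Beyond leaving out libraries, the number of members called in the genotype comparison was 2 with DESeq2 (Mki67 and Hmgb2), 1 with the CDS length offset (Hmgb2) and 2 with the offset and the sex block together, and for CS it was 1 with DESeq2 (Mki67). All genes called for genotype numbered 13 as reported, and 516 with DESeq2, 6 with the study's filter, 69 without a filter, 483 with the length offset, 43 with sex as replicate block and 709 with block and offset. For CS over both genotypes these were 0 as reported, and 68 with DESeq2, 1 without a filter, 3 with the offset and 4 with block and offset. For CS in α7G, DESeq2 called 25 genes against 0. For CS in α7E260A:G the 1 gene became 35 with DESeq2, 3 without a filter, 2 with the offset, with or without the block, and 0 with library-size scaling, the study's filter or the block. For the difference of the responses 0 became 7 with DESeq2 and 1 with the offset. The cause of these differences was not tested.

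Leaving out each library in turn gave 0 to 3 members called for genotype, 0 to 1 for CS and 0 in the other comparisons, and 1 to 646 genes called for genotype, 0 to 100 for CS, 0 to 142 for CS in α7E260A:G and 0 to 97 for the difference. With the offset as well, these were 0 to 3 members and 30 to 1036 genes for genotype, 0 to 202 genes for CS, 0 to 1 for CS in α7G, 1 to 150 for CS in α7E260A:G and 0 to 56 for the difference. The highest counts came without 1 of the α7E260A:G controls. Without the male one, 418 genes were called for genotype and 100 for CS, and without the female one 646 and 12. Without any 1 of the other 6 libraries 1 to 7 genes were called for genotype and 0 for CS. Members called were Mki67, Cenpf and Hmgb2 for genotype and Mki67 for CS without the female α7E260A:G control, and, with the offset, Hmgb2, Mki67 and Mcm3 without the male and Hmgb2 without the female one.

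The replicate numbers are the sexes. Deviations from group means correlated by sex at 0.29 to 0.62 over all genes between the 3 groups other than α7G CS, and at -0.03 to 0.02 between each of these and α7G CS, so the numbers were not taken to pair all libraries. Over the members, the correlation with α7G CS was -0.26 for the α7G control, -0.24 for the α7E260A:G control and -0.04 for α7E260A:G CS. The counts of pairs of the same sex above are descriptions and not paired tests. With sex as replicate block, 0 members were called in each of the 5 comparisons, and the member medians were 0.17 for genotype and -0.25 for CS. On the simulated counts edgeR rarely called a change of 1 on the log2 scale, so a member that was not called may still differ.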
